A study of Mus musculus with 2 samples.

Results

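The miRNAs described here are the group of miR-15b and miR-16 with miR-103 and miR-107 (probes rno-miR-15b, rno-miR-16, rno-miR-103 and rno-miR-107 with their seed relatives), small RNAs that share the bases AGCAGC at their 5′ end. They were measured in extracellular vesicles (EVs), the membrane particles that cells shed into their medium, from cultured mouse astrocytes, with 1 preparation from cells given the cytokine IL-1β and 1 from untreated control cells. Members were chosen by name from a rat miRNA code set: every probe for miR-15b, miR-16, miR-195, miR-322, miR-497, miR-103 or miR-107, with either arm allowed and star forms left out. The rule found 7 of the 420 miRNA probes. Of these, 3 (miR-15b, miR-16 and miR-107) were above background in both preparations, as were 33.1% of all miRNA probes. With counts scaled on the best-counted probes, 0 of those 3 had a ratio between the preparations whose interval excluded 1. Of the 139 probes measured in both, 35.3% had one, and with 3 members this does not set the group apart. With scaling on positive controls the miR-16 and miR-107 intervals lay below 1.

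The study set EVs collected 2 h after IL-1β, an inflammatory signal, was added at 200 ng per ml, beside untreated control EVs collected over 24 h, with 1 sample in each group. Both came from primary cortical astrocytes of mice at postnatal day 1, labelled GFAP-EGFP (green fluorescent protein driven by the promoter of the astrocyte gene GFAP), at passages 3 to 10, and were 98% GFAP-positive by the submitters' account, which names C57B6J mice too as a source of cultures. EVs of several flasks were pooled into a preparation, and because the collection time changed with the treatment, the 2 cannot be told apart. Nor can more vesicles be told apart from more RNA per vesicle. No ratio below has a replicate check, no p-value is given, and all intervals are 95% intervals that cover counting error only.

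A miRNA guides Argonaute proteins to messenger RNAs that pair with its seed, the bases near its 5′ end, and lowers the output of those messages. The family of miR-15 and miR-16 is known for repressing cell-cycle genes such as cyclins and the survival gene Bcl2, and miR-16 is often used as a normalizer in studies of blood and vesicle RNA. The pair miR-103 and miR-107 lies in genes of pantothenate kinases, the enzymes that open coenzyme A synthesis, and is known for roles in insulin sensitivity and, through repression of Dicer, in miRNA production.

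The mature sequences are shown because the group was defined by them, and because miR-107, the best-counted member, and miR-103, which stayed under background, differ by 1 base. Capitals mark the seed, bases 2 to 8. The sequences are the mouse ones of RefSeq's GRCm38.p6 annotation, on the arm that carries the seed, and all 7 members matched an entry (a name with a final letter added counted as a match). The rat sequences behind the probes were not used here.
miR-15b: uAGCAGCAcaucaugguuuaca
miR-16: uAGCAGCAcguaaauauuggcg
miR-195: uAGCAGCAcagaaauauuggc
miR-322: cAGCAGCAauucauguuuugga
miR-497: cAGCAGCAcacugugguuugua
miR-103: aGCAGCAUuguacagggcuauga
miR-107: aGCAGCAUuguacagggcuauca

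The seeds are not the same throughout. The first 5 members carry AGCAGCA, and miR-103 and miR-107 carry GCAGCAU, the same core placed 1 base nearer the 5′ end. Among the 1679 mature mouse miRNA names in the annotation, 10 (0.596%) have the first seed and 2 (0.119%) the second. Outside the seed, miR-16 and miR-195 are the closest of the first set, with 11 of 13 compared bases identical after base 8. The miR-15b and miR-16 sequences share 6 of 14 there. The miR-107 and miR-103 sequences are identical at 22 of 23 positions and differ by C22G, counted from 1 at the 5′ end, with the miR-107 base first. Below, the differing base alone is in capitals.
miR-107: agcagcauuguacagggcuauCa
miR-103: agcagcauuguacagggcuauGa

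Mouse miR-15b lies at chr3:69009775-69009796 on the plus strand, and 1 of the 2 genomic copies of miR-16 at chr3:69009918-69009939, with 66 bases between their hairpins, both inside the annotated span of Smc4. The other miR-16 copy, chr14:61631936-61631957 on the minus strand, lies within Dleu2. The mature miR-497 and miR-195 sequences lie at chr11:70234730-70234751 and chr11:70235062-70235082, both on the plus strand, with 241 bases between the hairpins. The miR-322 sequence lies at chrX:53054306-53054327 on the minus strand, within the long noncoding gene C430049B03Rik. The miR-107 sequence lies at chr19:34820700-34820722 on the minus strand within Pank1. Its near-twin miR-103 has a copy at chr2:131288103-131288125 within Pank2 and another at chr11:35782447-35782469 within Pank3, both on the plus strand.

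RNA was counted on the NanoString nCounter, which counts colour-coded reporters bound to single molecules. The miRNA probes summed to 13514 counts in IL-1β EVs against 16812 in control EVs. Background was taken as the mean + 2 SD of 8 negative-control probes, 9.67 counts in IL-1β EVs against 6.41 in control EVs. Of all miRNA probes, 34.8% were above background in IL-1β EVs against 44.0% in control EVs. On the astrocyte marker list, 9 of 12 probes were above background in IL-1β EVs against 9 of 12 in control EVs, summing to 2633 and 3943 counts. The neuron list had 1 of 7 probes above background in IL-1β EVs against 2 of 7 in control EVs, and miR-124, which defines neurons, had 5 counts in IL-1β EVs against 1 in control EVs. Erythroid miRNAs, listed because red cells are rich in miR-16, had 0 of 2 probes above background in either preparation, with 8 counts in sum in IL-1β EVs against 7 in control EVs.

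Of the group, 3 probes were above background in IL-1β EVs, where 34.8% of all miRNA probes were, and 4 in control EVs, where 44.0% were. In both preparations it was 3 of 7, against 33.1% of all probes. For the 3 measured members, counts are given less the mean of the negative controls, 3.125 in IL-1β EVs against 3.25 in control EVs, beside the Poisson interval of the raw count. The member with the most counts was miR-107. It had 117.9 counts (raw interval 100.4 to 144.6) in IL-1β EVs, rank 26 of 420, against 130.8 counts (112.3 to 158.7) in control EVs, rank 28. The intervals overlap.

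Second was miR-16, with 99.9 counts (84.1 to 124.9) in IL-1β EVs, rank 31, against 101.8 (85.9 to 127.1) in control EVs, rank 35. Its neighbour in the genome, miR-15b, had 53.9 counts (43.2 to 73.9) in IL-1β EVs, rank 57, against 48.8 (38.8 to 68.2) in control EVs, rank 62. For both miRNAs the 2 preparations gave nearly the same raw count, and the intervals overlap over most of their width.

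The other 4 members sat at or near the level of the negative controls, the highest of which reached 10 counts in IL-1β EVs against 5 in control EVs. For miR-195 there were 9 counts in IL-1β EVs, just under the threshold, and 10 in control EVs, just over it. The miR-322 probe had 5 counts in IL-1β EVs against 4 in control EVs. The miR-497 probe had 5 counts in IL-1β EVs against 1 in control EVs. The miR-103 probe had 7 counts in IL-1β EVs against 4 in control EVs. No fold is given for these 4, since both counts were under the threshold or, for miR-195, the control count lay under the IL-1β threshold once scaled. A further relative with the AGCAGC core on the code set, miR-503, had 2 counts in both preparations, and with it the extended group of 8 probes summed to 309 counts in IL-1β EVs against 312 in control EVs.

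**Figure D1:**
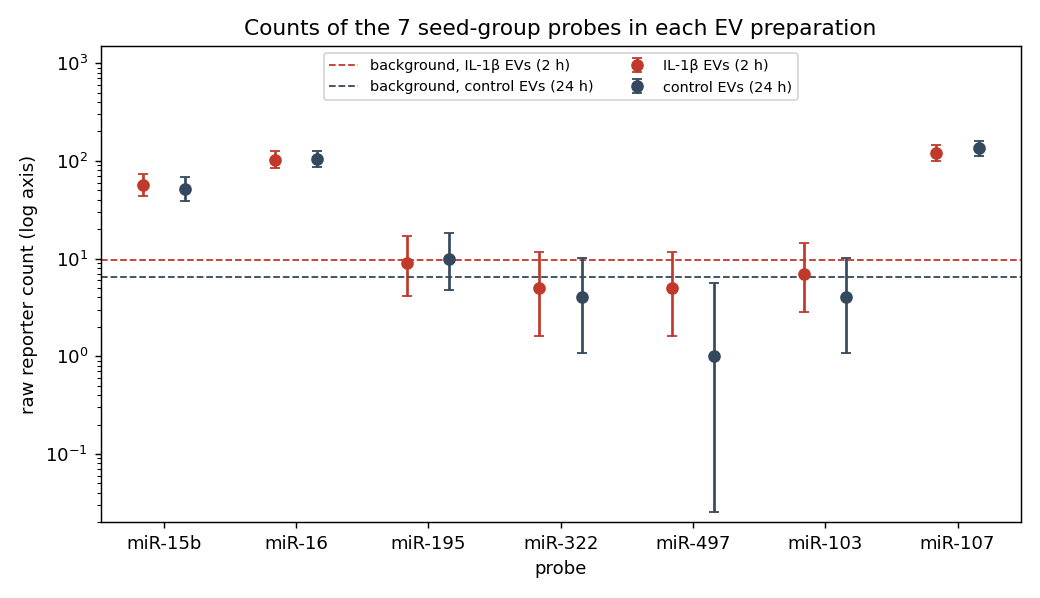
Raw reporter counts of the 7 probes (log axis) in IL-1β EVs, left of each pair, and control EVs, right, 1 sample each, with exact Poisson 95% intervals. Dashed lines are the background thresholds of 9.67 and 6.41 counts; miR-15b, miR-16 and miR-107 lie above both lines in both samples, and the other 4 lie under the line of their own sample, apart from miR-195 with 10 counts in control EVs.

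Taken as shares of all miRNA counts, miR-107 made up 0.895% (Clopper-Pearson interval 0.743 to 1.07) in IL-1β EVs against 0.797% (0.668 to 0.943) in control EVs. The share of miR-16 was 0.762% (0.623 to 0.924) in IL-1β EVs against 0.625% (0.511 to 0.756) in control EVs. That of miR-15b was 0.422% (0.320 to 0.546) in IL-1β EVs against 0.309% (0.231 to 0.405) in control EVs. Each share was somewhat greater in IL-1β EVs, with overlapping intervals in all 3 cases.

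Summed, the 7 probes gave 307 counts in IL-1β EVs, 2.27% of the total (2.03 to 2.54), and 310 in control EVs, 1.84% (1.65 to 2.06). The 3 members above background supplied 91.5% of that sum in IL-1β EVs against 93.9% in control EVs. The 5 probes of the AGCAGCA seed summed to 179 counts in IL-1β EVs against 172 in control EVs, 1.32% and 1.02% of all miRNA counts. The 2 probes of the GCAGCAU seed made up 0.947% of all miRNA counts in IL-1β EVs against 0.821% in control EVs, though their raw sum was lower in IL-1β EVs. The first sum over the second was 1.40 in IL-1β EVs against 1.25 in control EVs, a quotient of 1.12 with an exact interval of 0.805 to 1.56, so the 2 seed sets were not separated by their change.

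To compare the preparations, counts were scaled by the 100 best-counted miRNA probes (ratio of their geometric means, 0.875). The ratio of IL-1β over control EVs was then 1.25 for miR-15b (0.845 to 1.86), 1.12 for miR-16 (0.846 to 1.49) and 1.03 for miR-107 (0.800 to 1.33). All 3 intervals hold 1. For the sum of the 7 probes the ratio was 1.13 (0.963 to 1.33), an interval that holds 1 too. With scaling on the total count, as in the shares above, the ratio of the sums would be higher, and no interval is given for it. Of the 139 probes above background in both preparations, 35.3% had an interval that excluded 1. Interval width depends on the count, and 3 members are too few to set the group apart from that share. At 2-fold, 0 of the 3 were past the threshold in either direction, while among all 160 probes that had a ratio or a bound 5.62% were called higher and 9.38% lower.

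Set against the 139, the 3 members lay in the middle: their ratios ranked 61st, 81st and 92nd from the highest, with a median of 1.12, and the median of all 139 was 1.21 (quartiles 0.851 and 1.46). Scaling moved every ratio by a common amount, from 0.12 (total count) to -0.78 (positive controls) on the log2 scale. The counts of the assay's positive-control probes were themselves 1.51-fold higher (geometric mean) in the measurement of IL-1β EVs. With scaling on positive controls the ratios were 0.727 (0.490 to 1.08) for miR-15b, 0.651 (0.491 to 0.862) for miR-16 and 0.599 (0.465 to 0.772) for miR-107, so that the last 2 intervals lay below 1.

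**Figure D2:**
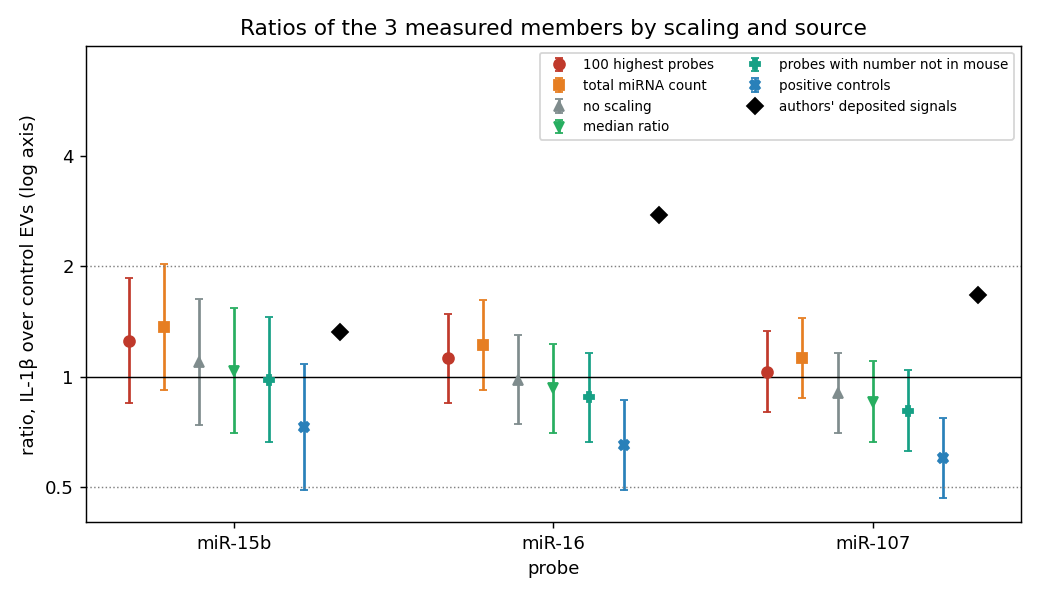
Ratio of IL-1β over control EVs (log axis) for miR-15b, miR-16 and miR-107 from raw counts under 5 scalings and with none, with exact binomial 95% intervals for counting error, and from the authors' deposited signals (black diamonds, no interval). Dotted lines mark 2-fold; with scaling on the 100 highest probes all intervals hold 1, with positive controls those of miR-16 and miR-107 lie below it, and the deposited signals give miR-16 2.76.

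Ratios between members within a preparation need no scaling, but they set different probes beside each other, whose ligation and capture efficiencies no source used here gives. The miR-16 count over that of miR-15b, its neighbour in the Smc4 locus, was 1.81 (1.30 to 2.54) in IL-1β EVs against 2.02 (1.43 to 2.87) in control EVs. The quotient of those 2 ratios was 0.895 (0.548 to 1.46). Relative to miR-15b, miR-107 stood at 2.12 (1.54 to 2.96) in IL-1β EVs against 2.58 (1.86 to 3.62) in control EVs, a quotient of 0.824 (0.512 to 1.32). Relative to miR-16 it stood at 1.17 (0.896 to 1.54) in IL-1β EVs against 1.28 (0.981 to 1.66) in control EVs, a quotient of 0.921 (0.628 to 1.35). As probe counts, and not as amounts of miRNA, those of miR-15b lay below the others beyond counting error in both preparations, and those of miR-107 and miR-16 were not separated. None of the 3 quotients was separated from 1.

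A wide contrast inside the group lay between miR-107 and miR-103, whose mature mouse sequences differ at position 22 alone. The miR-103 probe had 7 counts in IL-1β EVs against 4 in control EVs, under background in each. The miR-107 count over that of miR-103 was 17.3 (8.14 to 43.9) in IL-1β EVs against 33.5 (12.8 to 124.7) in control EVs. With the background threshold in place of the miR-103 count, it was 12.5 in IL-1β EVs against 20.9 in control EVs. These too are counts of different probes. How far either probe also counts the other miRNA was not tested.

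Background can also be read from 69 probes whose number no mouse miRNA gene in RefSeq shares. They were picked by number alone, and their sequences were not compared with mouse miRNAs. Their median was 15 counts in IL-1β EVs against 13 in control EVs, with a maximum of 270 and 238. In IL-1β EVs, 4 of these 69 exceeded miR-107, 4 exceeded miR-16 and 12 exceeded miR-15b. In control EVs, 3 exceeded miR-107, 4 exceeded miR-16 and 10 exceeded miR-15b. Their 95th percentile was 111.8 raw counts in IL-1β EVs, which miR-107 passed and miR-16 did not, and 104.6 in control EVs, which both passed, miR-16 with 105 raw counts. The miR-103 probe was exceeded by 43 of the 69 in IL-1β EVs against 54 in control EVs, and miR-497 by 49 and 66.

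**Figure D3:**
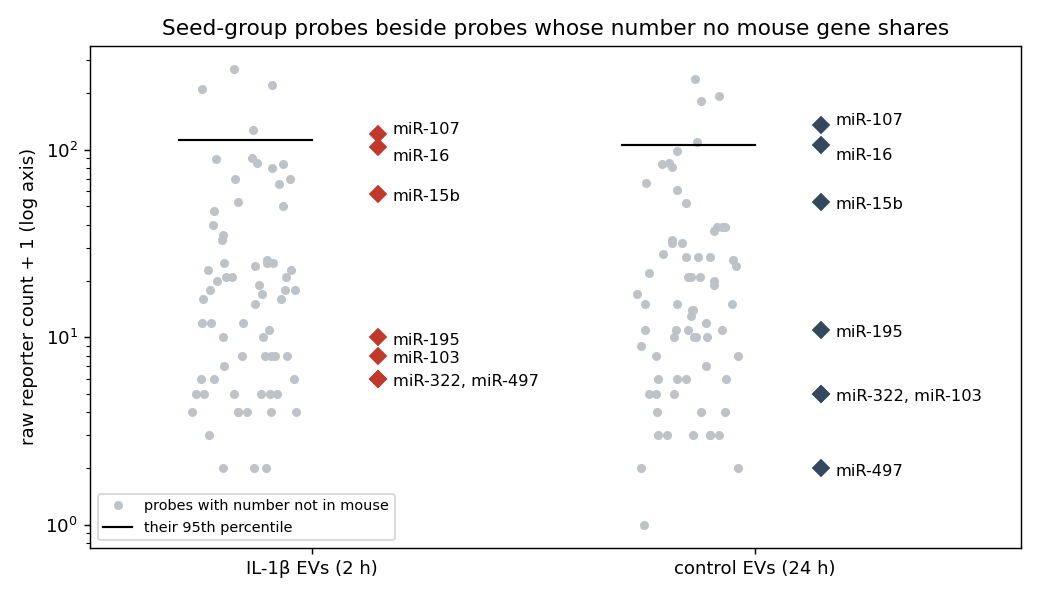
Raw reporter count + 1 (log axis) of the 69 probes whose number no mouse miRNA gene shares (grey) beside the 7 seed-group probes (diamonds), for IL-1β EVs on the left and control EVs on the right, with the 95th percentile of the grey probes as a black line. Of the group, miR-107 lies above the line in both samples and miR-16 close to it, while miR-195, miR-103, miR-322 and miR-497 lie among the lower grey points.

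The probes whose pair of counts lay closest to each member were found by distance on the log2(count + 1) scale over the 2 samples, which is a likeness of level in 2 preparations and of nothing more. For miR-16 they were miR-325-3p (102 counts in IL-1β EVs against 99 in control EVs, distance 0.085) and miR-214 (110 and 104, distance 0.095). For miR-15b they were miR-344a-3p (58 counts in IL-1β EVs against 48 in control EVs, distance 0.12) and miR-450a (61 and 47, distance 0.17). For miR-107 they were miR-455 (129 counts in IL-1β EVs against 122 in control EVs, distance 0.16) and let-7i (distance 0.22). All 6 had ratios between 1.18 and 1.48 with intervals that hold 1, which largely follows from choosing them by likeness of counts.

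The authors' deposited table, which holds signals and no counts, gave a different picture of the group. All its probes have a control signal and 119 have an IL-1β signal. It lists 5 of the 7 members and neither miR-103 nor miR-497. In the authors' deposited table miR-16 had a signal of 1872 in IL-1β EVs, the 6th highest, against 677 in control EVs, the 20th highest, a ratio of 2.76. For miR-107 the authors' deposited table gives 473 in IL-1β EVs against 283 in control EVs, a ratio of 1.67, and for miR-15b 422.6 against 319.8, a ratio of 1.32. The signals put miR-16 first in both preparations. The raw counts put miR-107 first, though not separated from miR-16 beyond counting error. In control EVs the signal of miR-107 over that of miR-15b was 0.886, where the raw counts gave 2.58 (1.86 to 3.62).

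The members near background in the raw counts also have signals in the authors' deposited table. There miR-322 stands at 109 in IL-1β EVs against 69.4 in control EVs (ratio 1.58), and miR-195 at 37.8 against 47.6 (ratio 0.794). Over the 119 probes with both signals the median ratio in the authors' deposited table was 0.883, with 9.24% of probes higher by 2-fold or more and 8.4% lower by as much. Of the 5 listed members 1, miR-16, was at least 2-fold higher, and its ratio was the 5th highest in the table. The raw counts did not show that change: the upper bound of the miR-16 interval was 1.49, and with total-count scaling, which raises all ratios most, it was 1.62.

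Whether the signals were made from these raw counts is not known, so signal over raw count only sets the 2 sources side by side. For miR-16 the quotient of the authors' deposited signal and the raw count was 18.2 in IL-1β EVs against 6.45 in control EVs. For miR-15b it was 7.41 and 6.15 in the same order, and for miR-107 3.91 and 2.11. Over the 96 listed probes above raw background in both preparations, with both signals, the median was 2.81 in IL-1β EVs against 1.66 in control EVs (ranges 0.336 to 19.0, and 0.433 to 41.3). Between the preparations the quotient changed 2.82-fold for miR-16, 1.85-fold for miR-107 and 1.21-fold for miR-15b, ranking 14th, 27th and 40th of 96, with a median of 0.908. The ratio of miR-16 to miR-15b in the authors' deposited table was 4.43 in IL-1β EVs against 2.12 in control EVs, a quotient of 2.09, which lies above the interval of 0.548 to 1.46 from the raw counts. Of the 2 probes closest to miR-16 in raw counts, the authors' deposited table gives miR-214 the ratio 2.76 and miR-325-3p the ratio 0.760. Sorted by size, the highest signals of the 2 preparations nearly match, though different probes hold them. The top signal was 3823.2 in each, for miR-125b-5p in IL-1β EVs against miR-181a in control EVs. Next came 2877.8 and 2916.3 in that order. The miR-16 signal of 1872, 6th in IL-1β EVs, lay near the 1906.7 that another probe had at that place in control EVs. Whether these signals carry more than the rank of a probe was not tested. No source used here tells how those signals were made or from which hybridisation, and which values are nearer to the vesicles' content was not tested.

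**Figure D4:**
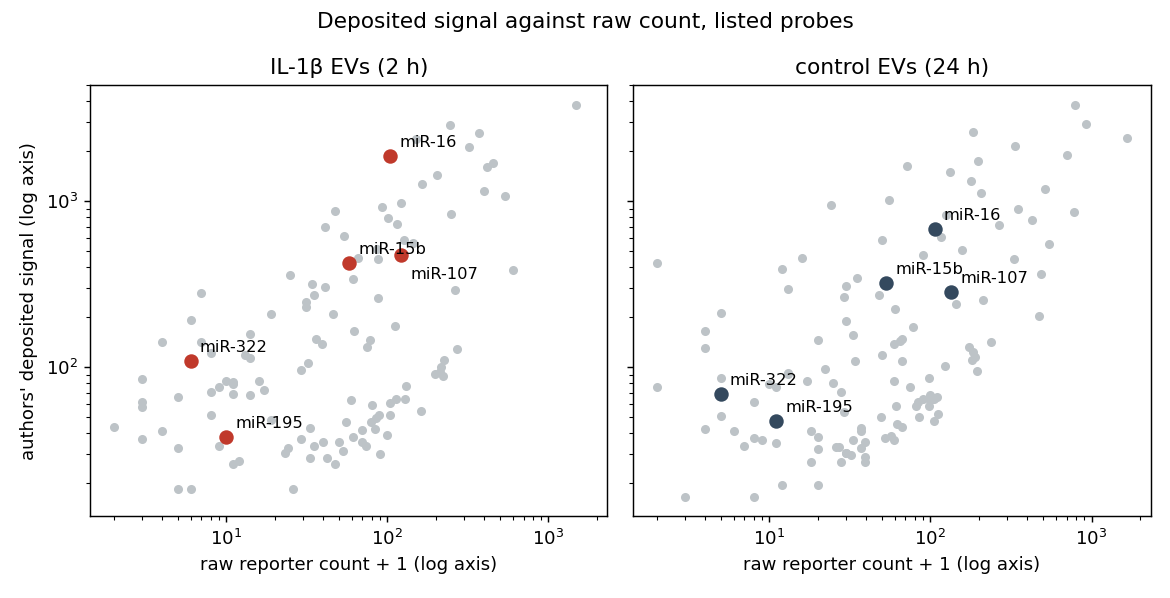
The authors' deposited signal (log axis) against raw count + 1 (log axis) for the listed probes, in IL-1β EVs on the left and control EVs on the right, with the 5 listed members in colour. In IL-1β EVs miR-16 lies near the upper edge of the cloud (signal 1872), while miR-107, with more counts, has a signal of 473.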

How the data were processed

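The 2 EV preparations, 1 per group, were measured with a NanoString rat miRNA code set. Per the file headers, the deposited raw files hold reporter counts with no normalization, and the imaged fields numbered 1139 of 1150 for IL-1β EVs against 1121 of 1150 for control EVs. The authors also deposited a table of 124 probes with a control signal, 119 of them also with a signal for IL-1β EVs and the ratio to control EVs. How these were made, and whether from the same counts, no source used here says. All 124 rows of the deposited series matrix matched those signals.

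From the raw counts, ratios were computed after scaling on the 100 best-counted miRNA probes (by mean count), with no background subtraction. Intervals are exact, Poisson for counts, Clopper-Pearson for shares and ratios, and conditional for quotients of ratios, at 95% (Python 3.11.15, scipy 1.17.1). Calls needed a ratio or bound of at least 2-fold and an interval that excluded 1. Probes above background in 1 preparation alone were set against the other's threshold. The raw counts were 103 in IL-1β EVs against 105 in control EVs for miR-16, 121 against 134 for miR-107 and 57 against 52 for miR-15b. The calculation was tested on simulated counts. Alternatives were 4 other scalings, unscaled counts, counts less the negative-control mean, other thresholds and fold minimums, and the deposited signals.

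Named miRNAs were the members, the 2 probes closest to each measured member, and up to 4 members of each list with the highest counts; miR-124 is named as the defining neuronal marker. The members, lists and tests were chosen with earlier results of these data known.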

Additional observations from a re-analysis of the deposited data

How the results depend on the processing

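No paired analysis was possible because each group holds 1 sample, and no replicate could be left out. Of the 3 member ratios under 9 alternatives each, 5 values left the interval of the reported one and 22 stayed inside it, among them those with the 2 other background thresholds, which do not enter a ratio. With scaling on positive controls they were 0.727 (miR-15b), 0.651 (miR-16) and 0.599 (miR-107); with the authors' deposited signals, 2.76 for miR-16 and 1.67 for miR-107. With those signals the quotient was 2.09 for miR-16 over miR-15b and 0.604 for miR-107 over miR-16. Leaving out miR-15b, miR-16 or miR-107 took the summed share to 1.85%, 1.51% or 1.38% in IL-1β EVs and to 1.53%, 1.22% or 1.05% in control EVs, as fewer probes were summed. With a threshold at the 95th percentile of the 69 probes whose number no mouse gene shares, chosen after seeing the data, 1 member passed in IL-1β EVs against 2 in control EVs. The probes called higher over the whole code set, 9 as reported, numbered 0 with positive controls, 15 with total counts, 2 with the median ratio, 4 with no scaling, 1 when scaled on those 69 probes (also added later), 1 with that 95th percentile, and 19 and 0 with fold minimums of 1.5 and 4. Those called lower, 15 as reported, numbered 46 with positive controls, 24 with the median ratio, 27 when scaled on the 69 probes, 5 with that 95th percentile, and 26 and 1 with fold minimums of 1.5 and 4. The cause was not tested. Raw counts of 52 to 57 limit miR-15b most, and for the other 4 a change that stays under 9.67 counts in IL-1β EVs cannot be seen.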

Other observations

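Members of the group sit among 2 further sets of probes. The X-linked cluster that holds miR-322 has 6 probes on the code set. Of these, miR-450a alone was above background, with 61 counts in IL-1β EVs against 47 in control EVs, a ratio of 1.48 (0.997 to 2.22). The others, among them miR-503, which shares the AGCAGC core, with 2 counts in both preparations, and miR-542-5p with 7 in IL-1β EVs against 1 in control EVs, were below it. No probe was named for the opposite arm of any of the 7 members.

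Among 10 probes of miRNAs often used as normalizers, which include miR-16 and miR-103, 4 were above background in IL-1β EVs against 5 in control EVs. Of all miRNA probes, 34.8% and 44.0% were, in that order. Ratios of the 4 measured in both ran from 0.424 (0.275 to 0.638) for miR-25, which was called lower, and 0.519 (0.326 to 0.811) for miR-191 to 1.12 for miR-16 and 1.43 (1.18 to 1.72) for miR-24, with a median of 0.820. With scaling on the 100 best-counted probes, miR-16 was the only one of these 4 whose interval held 1. Other scalings shift all 4 ratios by a common amount, so which intervals hold 1 depends on that choice. With scaling on positive controls the miR-16 interval lay below 1, and in the authors' deposited table its ratio was 2.76. On the astrocyte list 4 of the 9 probes measured in both preparations were called lower and 0 higher, with a median ratio of 0.522. Of all 160 probes with a ratio or bound, 9.38% were called lower and 5.62% higher. The 4 best-counted probes of that list went both ways: miR-125b-5p 1.02 (0.948 to 1.09), miR-181a 0.352 (0.304 to 0.407), miR-27a 0.471 (0.385 to 0.574) and miR-24 1.43 (1.18 to 1.72). On the neuron list miR-132 was called lower (13 counts in IL-1β EVs against 58 in control EVs). The microglia and leukocyte list had 2 of 6 probes above background in IL-1β EVs against 3 of 6 in control EVs. For all miRNA probes it was 34.8% and 44.0%. On this list 1 probe was called higher (5.62% of the 160 were), miR-342-5p with 22 counts in IL-1β EVs against 11 in control EVs. Its other arm, miR-342-3p, was under background in both. The oligodendrocyte list had 2 of 6 and 3 of 6 above background: miR-23a and miR-32 in both preparations, and miR-219-5p in control EVs alone. The endothelial list had 0 of 1 and 1 of 1.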
